A study of Homo sapiens with 55 samples.

Results

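The measurements described here are the inclusion of 28993 cassette exons of middling genomic reach. A cassette exon is an internal exon that the spliced RNA either keeps or leaves out, and inclusion is the percent of its RNA that keeps it. An exon was taken when the junction that leaves it out, which joins the exon before it to the exon after it, spanned over 2000 and up to 20000 nt in the deposited event names. The rule used coordinates only and no inclusion value. It took 28993 of 48170 cassette events, or 60.2%, and 26.2% of the 110816 splicing events with coordinates. The other cassette events had a skipping junction of up to 2000 nt (9357 events) or over 20000 nt (9820 events).

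The libraries came from K562, a human chronic myeloid leukemia line, and 293T, a human embryonic kidney line. K562 cells carried wild-type (WT) SF3B1 or a knock-in of its K700E change, or overexpressed WT or P95H SRSF2, or overexpressed WT or S34F U2AF1. The 293T cells were labelled WT. CRISPR guides cut GPATCH8 (guides 16 and 17 in the SF3B1 and 293T panels) or SUGP1 (guides 3 and 4). Control cells had a guide (sgRenilla) to the Renilla luciferase gene, absent from human cells. In the SF3B1 panel each genotype had 1 sgRenilla library, 2 sgGPATCH8 libraries and 2 sgSUGP1 libraries, 1 per guide. The SRSF2 and U2AF1 panels had 3 sgRenilla and 3 sgGPATCH8 libraries per genotype. Labels of these panels name no guide number, so whether more than 1 GPATCH8 guide was used there is not given. The 293T panel had 2 sgRenilla, 4 sgGPATCH8 and 4 sgSUGP1 libraries. In 293T every sgRenilla library carried one of a pair of WT names in the labels, and what separates those names was not given. Nothing in the labels says that libraries of a group came from separate cultures, so p-values measure only the spread between these libraries. The deposited tables hold no gene levels, so neither the cell types' markers nor the loss of the targeted genes was checked here. Whether each line was 1 clone was not given, and the SRSF2 and U2AF1 proteins were overexpressed beside the cells' own copies.

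A cassette exon is kept when the spliceosome pairs the splice sites at both of its ends, and is lost when the sites of its neighbours are paired over it. U2AF1 reads the end of the intron before the exon, SF3B1 holds the branch point as part of the U2 snRNP, and SRSF2 binds short motifs within the exon and helps to keep it. SUGP1 and GPATCH8 are proteins with a G-patch, the short domain by which such proteins bind and switch on RNA helicases. K700E, P95H and S34F are recurrent mutations of myeloid neoplasms. P95H is known to shift the motif that SRSF2 favours within exons from GGNG towards CCNG. Very short exons, called microexons, leave little room for such motifs and are known from transcripts of adhesion, trafficking and cytoskeleton proteins.

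Of the 28993 events, 27753 (95.7%) had a gene name, from 10614 names. Events can share an exon or a junction, so they are not independent of each other. An exon of GENCODE release 29 matched the ends of 22701 events and gave 21205 distinct exons of known length. Their median length was 113 nt (quartiles 79 and 157), and 527 of them (2.49%) were microexons of up to 27 nt. A length that is a multiple of 3, which leaves the reading frame unbroken, was found for 43.4% of the distinct exons and for 78% of the microexons (411 of 527). The median skipping junction spanned 6267 nt, with 2631 nt of intron before the exon and 2405 nt after it. By annotation 12205 events held a coding exon, 3176 an exon of a transcript subject to nonsense-mediated decay (NMD), 3075 an exon of a noncoding transcript, 2518 a 5' UTR exon, 1705 a partly coding exon and 22 a 3' UTR exon. Another 5545 events matched no exon and 747 matched more than 1 exon end.

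The exons nearest to the limits of the rule are given as a description. Just inside the lower limit lay exons of TERF2 (span 1 nt over 2000, median inclusion 5% over 44 libraries), MTIF2 (1 nt over 2000, 98%) and BUB3 (2002 nt, 0%). Just outside it lay exons of MATN4 (1999 nt, 46% over 17 libraries), HERC6 (2000 nt, 93%) and MYB (2000 nt, 26.5%). Just inside the upper limit lay ILDR2 (19996 nt, 58% over 19 libraries), COL23A1 (19999 nt, 76% over 41) and YIPF4 (20000 nt, 5.25%). Just outside it lay BBX (20004 nt, 95.5%), DCTN4 (20004 nt, 96.8%) and WDSUB1 (20006 nt, 94.5%).

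Each library had a value for 22351 to 23991 of the 28993 exons (77.1% to 82.7%), and the median inclusion of a library lay between 54.5% and 59%. The median absolute difference between 2 libraries of a group was 1.5 points for SF3B1 libraries, 1 for SRSF2 libraries and 2 for U2AF1 and 293T libraries. Between the 2 sequencing runs of an SF3B1 library it was 2 points. Replicate 1 of the U2AF1 groups stood apart from replicates 2 and 3. Counts without it are given below for GPATCH8 loss in each U2AF1 genotype and for S34F with sgGPATCH8. The averaged U2AF1 comparisons were not fitted without it.

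Sequences are shown for 3 sets of exons that the results turn on. In each line the cassette exon is in capitals and the last and first 15 bases of the neighbouring exons are in lower case, 5' to 3' on the gene's strand, as spliced in GENCODE release 29 transcripts. The first set holds examples of short exons whose inclusion changed with GPATCH8 guides. DST, ACOT9, FLNA, AFDN, PICALM, INCENP and CLASP2 lost the exon and SIRT2 gained it. MARK3 and SLIT2 lost it in 293T.
DST 18 nt: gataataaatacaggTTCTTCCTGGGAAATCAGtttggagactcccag
ACOT9 27 nt: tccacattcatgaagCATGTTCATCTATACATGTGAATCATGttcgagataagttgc
FLNA 24 nt: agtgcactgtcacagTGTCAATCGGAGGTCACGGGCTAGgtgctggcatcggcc
AFDN 21 nt: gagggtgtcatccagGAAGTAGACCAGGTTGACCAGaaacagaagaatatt
PICALM 24 nt: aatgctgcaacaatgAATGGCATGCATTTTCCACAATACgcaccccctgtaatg
INCENP 12 nt: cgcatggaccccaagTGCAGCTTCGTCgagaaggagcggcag
CLASP2 3 nt: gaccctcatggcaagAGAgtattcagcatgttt
MARK3 27 nt: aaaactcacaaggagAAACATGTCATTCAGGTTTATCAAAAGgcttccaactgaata
SLIT2 24 nt: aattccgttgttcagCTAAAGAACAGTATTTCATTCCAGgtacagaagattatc
SIRT2 47 nt: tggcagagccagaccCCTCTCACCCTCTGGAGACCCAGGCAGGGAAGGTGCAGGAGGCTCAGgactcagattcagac

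These exons carry between 29.6% (MARK3) and 66% (SIRT2) G or C, and the microexons among them are 3, 12, 18, 21, 24 or 27 nt long. In hg19 coordinates of the skipping junction, DST lies on chromosome 6 (56330993 to 56334681), ACOT9 on chromosome X (23751334 to 23754036), FLNA on chromosome X (153583440 to 153585802) and AFDN on chromosome 6 (168312169 to 168314848). PICALM lies on chromosome 11 (85687725 to 85692172), INCENP on chromosome 11 (61908516 to 61912454), CLASP2 on chromosome 3 (33602463 to 33612219) and SIRT2 on chromosome 19 (39384507 to 39390146). All of these exons are annotated as coding.

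The second set holds exons that were higher (CD44, TTLL3, CASK) or lower (ODF2L, DHDH) with SRSF2 P95H, chosen to show the balance of CCNG and GGNG. The values given below for CASK, ODF2L and DHDH are from sgGPATCH8 cells, and CASK was not called in sgRenilla cells. The 2 motifs, in which N is any base, were counted on the RNA strand alone, and overlapping matches counted each. The CD44 exon had 3 CCNG and 0 GGNG, TTLL3 had 4 and 1, CASK had 2 and 0, ODF2L had 3 and 8, and DHDH had 4 and 10. Not every exon named below for P95H had such a balance. The 456-nt SRSF3 exon, which fell, had 8 CCNG and 1 GGNG, and the 45-nt GNAS exon, which rose, had 1 and 3.
CD44 132 nt: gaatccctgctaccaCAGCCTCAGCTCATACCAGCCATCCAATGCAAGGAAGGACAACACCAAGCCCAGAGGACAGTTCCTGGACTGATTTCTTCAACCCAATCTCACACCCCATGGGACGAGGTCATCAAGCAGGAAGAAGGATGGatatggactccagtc
TTLL3 129 nt: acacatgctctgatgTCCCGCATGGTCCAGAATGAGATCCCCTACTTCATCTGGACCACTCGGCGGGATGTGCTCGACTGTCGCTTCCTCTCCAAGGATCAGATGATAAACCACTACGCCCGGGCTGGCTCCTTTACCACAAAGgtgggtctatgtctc
CASK 69 nt: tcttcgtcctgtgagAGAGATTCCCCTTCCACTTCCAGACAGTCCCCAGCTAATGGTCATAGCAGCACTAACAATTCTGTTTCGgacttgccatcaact
ODF2L 159 nt: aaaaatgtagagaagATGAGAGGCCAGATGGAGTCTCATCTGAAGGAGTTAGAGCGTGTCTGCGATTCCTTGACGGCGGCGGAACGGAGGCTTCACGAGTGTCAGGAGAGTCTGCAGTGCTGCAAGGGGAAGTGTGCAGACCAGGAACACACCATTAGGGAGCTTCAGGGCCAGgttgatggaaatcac
DHDH 164 nt: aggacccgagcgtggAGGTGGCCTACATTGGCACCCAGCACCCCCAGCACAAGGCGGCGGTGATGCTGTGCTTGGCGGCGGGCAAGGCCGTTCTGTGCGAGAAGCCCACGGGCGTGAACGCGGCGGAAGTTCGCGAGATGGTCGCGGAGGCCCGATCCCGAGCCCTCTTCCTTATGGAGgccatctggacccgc

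The third set holds exons that were higher (NOX5, ENTPD1) or lower (DLST) with SF3B1 K700E.
NOX5 133 nt: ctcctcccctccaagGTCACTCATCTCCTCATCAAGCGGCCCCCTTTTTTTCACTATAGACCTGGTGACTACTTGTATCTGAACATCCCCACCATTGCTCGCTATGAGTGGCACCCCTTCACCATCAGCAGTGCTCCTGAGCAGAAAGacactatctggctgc
ENTPD1 151 nt: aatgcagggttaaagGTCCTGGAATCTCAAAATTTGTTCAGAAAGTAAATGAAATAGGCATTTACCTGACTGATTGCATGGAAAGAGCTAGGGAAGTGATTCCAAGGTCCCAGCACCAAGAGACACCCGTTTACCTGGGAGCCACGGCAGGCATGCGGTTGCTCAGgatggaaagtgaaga
DLST 34 nt: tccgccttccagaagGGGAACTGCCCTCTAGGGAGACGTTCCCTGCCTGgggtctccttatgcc

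Loss of GPATCH8 lowered inclusion of a small group of cassette exons, and the shortest exons were lowered most often. The clearest replicated comparison in cells without a splicing factor mutation was sgGPATCH8 against sgRenilla in K562 overexpressing WT SRSF2, with 3 libraries in each group. An exon was called when limma's test gave an adjusted p under 0.05 over all splicing events tested and inclusion differed by 5 points or more. Of 12289 exons tested, 34 rose and 59 fell, 0.757% together, while 0.491% of all events tested were called (0.207% higher and 0.284% lower). Microexons of up to 27 nt fell in 12 of 163 cases (7.36%) and rose in 1. Of exons of 28 to 60 nt 15 of 1053 fell (1.42%), of 61 to 120 nt 15 of 4107 (0.365%), of over 120 and up to 200 nt 1 of 3139 (0.0319%), and over 200 nt 4 of 1174 (0.341%). The exons that fell had a median length of 46 nt and 33 of 45 distinct exons (73.3%) were a multiple of 3, against 113 nt and 43.1% of those tested. The exons that rose had a median of 98 nt and 50% were a multiple of 3. Leaving out 1 library at a time gave 46 to 56 calls, with 9 to 11 microexons called lower.

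**Figure D1:**
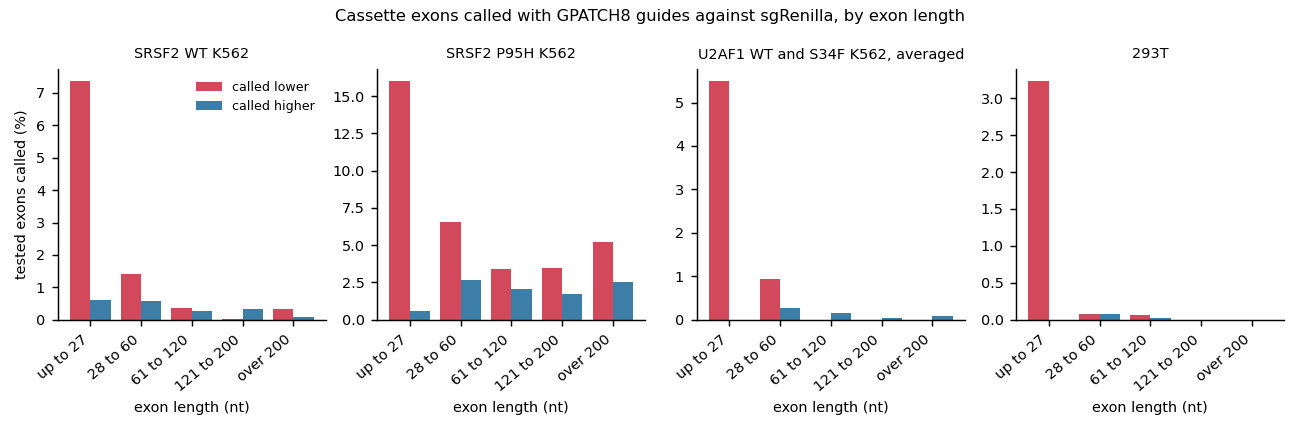
Percent of tested cassette exons called higher or lower with GPATCH8 guides against sgRenilla, by exon length in nt, for the SRSF2 WT, SRSF2 P95H, averaged U2AF1 and 293T comparisons (the percent axes differ between panels). In each, the share called lower is highest at up to 27 nt: 7.36% with SRSF2 WT, 16% with P95H, 5.49% over the U2AF1 panel and 3.23% in 293T.

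DST encodes dystonin, a large linker of the cytoskeleton. Inclusion of its 18-nt exon was 75%, 81% and 80% in the 3 SRSF2 WT sgRenilla libraries and 24%, 16% and 26% in the sgGPATCH8 libraries. The groups did not overlap, and inclusion fell by 56.7 points (log2 ratio of included to skipped RNA -3.65, SE 0.32, limma adjusted p = 0.000779). ACOT9 encodes a mitochondrial acyl-CoA thioesterase. Its 27-nt exon had 75%, 71% and 72% with sgRenilla and 26%, 20% and 24% with sgGPATCH8. The 2 groups stood far apart, with a difference of -49.3 points (log2 ratio -3.06, SE 0.16, limma adjusted p = 8.32e-05). FLNA encodes filamin A, which crosslinks actin. Its 24-nt exon went from 67%, 64% and 66% to 26%, 29% and 29% (difference -37.7 points, log2 ratio -2.25, SE 0.15, limma adjusted p = 0.000189).

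AFDN encodes afadin, a scaffold of cell junctions. Its 21-nt exon had 54% in every sgRenilla library of the SRSF2 WT cells and 23%, 24% and 23% with sgGPATCH8, which is a difference of -30.7 points (log2 ratio -1.90, SE 0.14, limma adjusted p = 0.000415). INCENP, a subunit of the chromosomal passenger complex, has a 12-nt exon with 71%, 66% and 68% against 38%, 31% and 41% (difference -31.7 points, limma adjusted p = 0.003). CLASP2 binds the growing ends of microtubules. Its 3-nt exon, a single codon, had 93%, 91% and 92% with sgRenilla and 66%, 64% and 65% with sgGPATCH8 (difference -27 points, limma adjusted p = 0.000415). PICALM, an adaptor of clathrin coats, included its 24-nt exon little. It had 14%, 13% and 14% with sgRenilla and 3%, 2% and 3% with sgGPATCH8, a difference of -11 points (log2 ratio -2.18, SE 0.17, limma adjusted p = 0.000415). In none of these 4 exons did the groups overlap. All of them, and DST, ACOT9 and FLNA, kept their call in each of the 6 fits without 1 library.

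Exons a little longer behaved likewise. The 30-nt exon of LMO7, which encodes an actin-binding junction protein, had 95%, 96% and 96% with sgRenilla and 62%, 71% and 57% with sgGPATCH8 (difference -32.3 points, limma adjusted p = 0.000499). The 31-nt exon of RALGAPA1, a subunit of the Ral GTPase-activating complex, had 87%, 89% and 91% against 60%, 52% and 48% (difference -35.7 points, limma adjusted p = 0.0013). The 46-nt exon of ADGRG6, an adhesion G protein-coupled receptor, had 71%, 80% and 72% against 26%, 30% and 19% (difference -49.3 points, limma adjusted p = 0.00269). In all 3 exons every sgGPATCH8 library lay below every sgRenilla library. The 33-nt exon of ARAP1, a regulator of Arf GTPases, had 67%, 70% and 66% against 43%, 47% and 42% (difference -23.7 points, limma adjusted p = 0.00655). Longer exons were also among those that fell. CTTN encodes cortactin, an activator of branched actin, and its 111-nt exon had 84%, 85% and 81% against 58%, 58% and 61% (difference -24.3 points, limma adjusted p = 0.000727). H2AFY encodes the histone macroH2A1. Its 91-nt exon had 19%, 16% and 19% against 5%, 5% and 4% (difference -13.3 points, limma adjusted p = 0.00177).

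Fewer exons rose. SIRT2 encodes a deacetylase of tubulin and histones. Its 47-nt exon had 19%, 15% and 21% with sgRenilla and 59%, 55% and 54% with sgGPATCH8. The groups were clearly separate, and inclusion rose by 37.7 points (with a log2 ratio of 2.45, SE 0.18, limma adjusted p = 0.000366). The same exon measured against another neighbour went from 33%, 19% and 31% to 69%, 69% and 79% (difference 44.7 points, limma adjusted p = 0.0102), a call lost in 1 of 6 fits without 1 library. PICALM, whose 24-nt exon fell, also has a 129-nt coding exon further upstream that rose from 20%, 21% and 21% to 38%, 37% and 38% (difference 17 points, limma adjusted p = 0.00115). PARD3, a cell polarity scaffold, has a 39-nt exon with 31%, 36% and 33% against 53%, 50% and 54% (difference 19 points, limma adjusted p = 0.0084). PFDN5 encodes a prefoldin subunit and held exons of both directions. Its 103-nt exon, known from an NMD transcript, fell from 60%, 55% and 60% to 40%, 40% and 38% (difference -19 points, limma adjusted p = 0.00467). Its 75-nt coding exon rose from 23%, 23% and 27% to 42%, 50% and 39% (difference 19.3 points, limma adjusted p = 0.0331), a call that no fit without 1 library kept.

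In cells overexpressing SRSF2 P95H, GPATCH8 guides changed more exons. There 241 rose and 499 fell of 12289 (6.02%), against 4.84% of all events tested (1.89% higher and 2.95% lower). The microexons again fell most often, with 26 of 163 lower (16%) and 1 higher. Of exons of 28 to 60 nt 69 of 1053 fell (6.55%), of 61 to 120 nt 141 (3.43%), of over 120 and up to 200 nt 109 (3.47%) and over 200 nt 61 (5.2%). Of exons whose length is a multiple of 3, 248 of 4129 fell (6.01%), against 158 of 5507 of other lengths (2.87%). Fits without 1 library gave 412 to 485 calls, and 483 differences were of 10 points or more. DST had 92%, 85% and 85% in the P95H sgRenilla libraries and 29%, 38% and 35% in the sgGPATCH8 libraries, again with no overlap (difference -53.3 points, limma adjusted p = 0.000281). LMO7 had 96%, 93% and 95% against 38%, 46% and 40% (difference -53.3 points, limma adjusted p = 5.18e-05).

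The SRSF2 WT and P95H comparisons share no library. Of the 93 exons called in SRSF2 WT cells, 67 were also called in P95H cells, which is 72% of the first list and 9.05% of the second. The direction was the same for 85 of the 93 (91.4%), against 54.7% of all 12289 exons. More calls in P95H cells than in WT cells is no test of a difference. That test, given below, called 6 exons.

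The other panels gave few calls. With WT U2AF1, 5 exons fell and 0 rose of 12179 (0.0322% of all events were called, 0.0276% lower). With U2AF1 S34F, 5 fell and 1 rose (0.0345% of all events, 0.0092% higher and 0.0253% lower). Exons of ACOT9, CLASP2, KIF13A and PICALM were among the 5 that fell in both genotypes. KIF13A, a kinesin motor, had 14%, 28% and 24% with WT U2AF1 sgRenilla and 3%, 4% and 3% with sgGPATCH8 in its 39-nt exon (difference -18.7 points, limma adjusted p = 0.0241). The 1 that rose was the 84-nt exon of PIP5K1C, a lipid kinase, from 30%, 25% and 33% to 61% in each library (difference 31.7 points, limma adjusted p = 0.0388). In 293T, 15 fell and 3 rose of 13572, or 0.133%, against 0.0673% of all events (0.0143% higher and 0.053% lower). In 293T 8 of 248 microexons fell (3.23%) and 0 rose, while of exons of 28 to 60 nt 1 of 1289 fell. The exons that fell in 293T had a median length of 27 nt. The 3 that rose were those of SIRT2, PFDN5 (75 nt) and PM20D2. The 18 calls in 293T fell to 0 when any 1 library, or the libraries of either guide, were left out.

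In the SF3B1 panel, with 1 sgRenilla library per genotype, 0 of 14214 exons were called by limma in WT cells (0.0059% of all events) and 0 in K700E cells (0.0138% of all events). At an unadjusted p under 0.05 there were 1265 and 1421 exons, and the lowest adjusted p was 0.0872 and 0.0633.

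With both U2AF1 genotypes averaged, a comparison added after the data had been seen, GPATCH8 guides raised 14 exons and lowered 25 (0.219% of all events were called, 0.0713% higher and 0.147% lower). Among microexons 9 of 164 fell (5.49%) and 0 rose. The exons that fell had a median length of 30 nt, and 89.5% were a multiple of 3. In WT U2AF1 cells same-numbered libraries deviated together, though replicates 2 and 3 did so across numbers as well. With the replicate number as a block, 10 exons fell in place of 5 (0.0575% of all events), and these included a 15-nt exon of ABI1 (-19.3 points, limma adjusted p = 0.0143) and a 12-nt exon of TEAD1 (-15.0 points, 0.0477). ABI1 belongs to an actin-regulating complex and TEAD1 is a transcription factor of the Hippo pathway. Without replicate 1 of every U2AF1 group, limma called 0 exons in either genotype, and the average was not fitted without it.

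The short exons that fell with WT SRSF2 were lower in every other comparison of GPATCH8 guides with sgRenilla, none of which shares a library with it. All 12 microexons had a negative difference in each of the 6 other comparisons. Their median difference was -16.4 points with SF3B1 WT, -23.8 with SF3B1 K700E, -27.2 with SRSF2 P95H, -21.5 with U2AF1 WT, -20.7 with U2AF1 S34F and -23.8 in 293T. The medians of all microexons tested lay between -2 and -0.88 points. The 15 exons of 28 to 60 nt that fell were also below 0 wherever they were tested, with medians of -10.5, -12.0, -20.3, -15.3, -13.8 and -16.8 points in the same order. The 15 exons of 61 to 120 nt were less uniform, with 10, 14, 12, 11, 11 and 11 of 15 below 0. Over all 93 calls the direction was the same in 86.5% of those tested with SF3B1 WT, 93.3% with SF3B1 K700E, 92.2% with U2AF1 WT, 91.1% with U2AF1 S34F and 90.9% in 293T. Over all exons tested in both, these shares lay between 49.8% and 53.4%. The 293T calls shared 12 exons with the SRSF2 WT calls, 66.7% of the 293T list and 12.9% of the SRSF2 WT list.

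ACOT9 showed the pattern in all 4 panels. With U2AF1 WT its exon had 71%, 73% and 79% in sgRenilla libraries and 26%, 22% and 27% in sgGPATCH8 libraries (limma adjusted p = 0.00471). With U2AF1 S34F it had 59%, 60% and 57% against 7%, 14% and 10% (limma adjusted p = 0.00167). In 293T it had 65% and 68% against 22% and 26% with guide 16 and 14% and 15% with guide 17 (difference -47.2 points, limma adjusted p = 0.0161). The single SF3B1 WT sgRenilla library had 73%, against 27.5% with guide 16 and 17.5% with guide 17, a difference of -50.5 points that was not called. In each panel no sgGPATCH8 library reached the lowest sgRenilla library. ACOT9 and PICALM were called lower in 5 of the 7 comparisons, and CLASP2 in 4. The SIRT2 exon and the 75-nt PFDN5 exon were called higher in 3 comparisons.

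**Figure D2:**
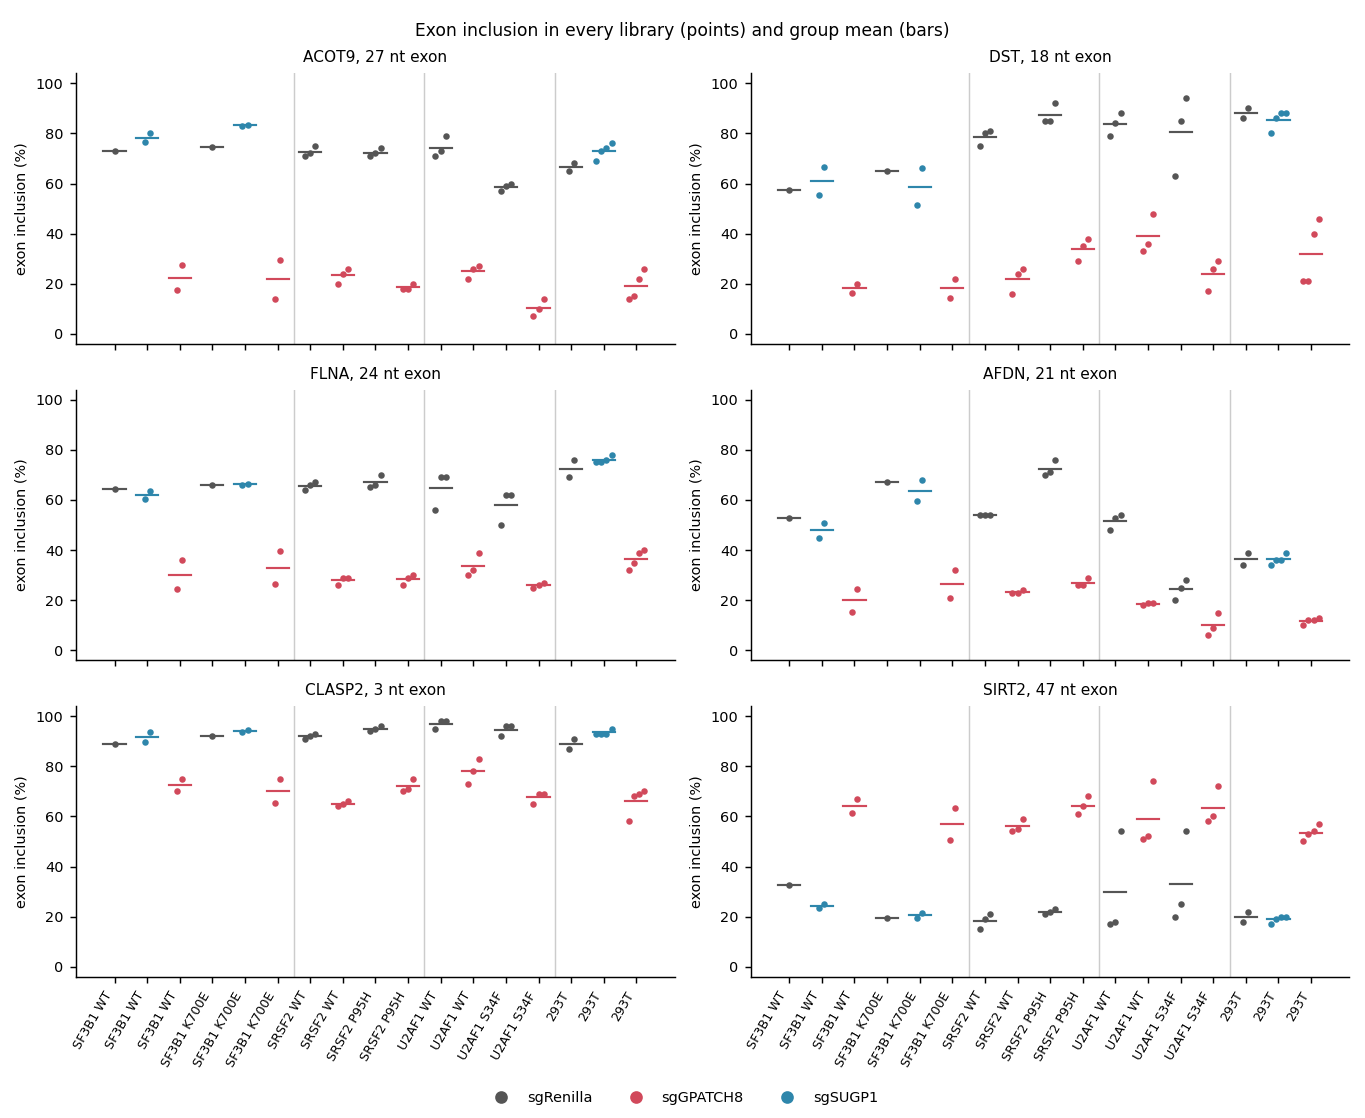
Inclusion (percent) of 6 exons in every library, by panel, genotype and guide target, with 1 point per library. In the SRSF2 WT cells ACOT9, DST, FLNA, AFDN and CLASP2 are lower with GPATCH8 guides than with sgRenilla in every library, SIRT2 is higher, and SUGP1 guides are shown beside them where the panel has them.

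The 2 GPATCH8 guides did not give the same level. Among the 12 microexons that fell with WT SRSF2, guide 17 gave lower inclusion than guide 16 in 12 of 12 in SF3B1 WT cells (median inclusion 22.2% with guide 16 and 16% with guide 17). In SF3B1 K700E cells it was also lower in 12 of 12 (23.5% and 14.2%), and in 293T in 9 of 12 (14% and 13%). Over all exons with values guide 17 was the lower in 43.5%, 39.9% and 39%. Each guide had 1 library per SF3B1 genotype, so the guide and the library cannot be told apart there. DST in 293T had 86% and 90% with sgRenilla, 46% and 40% with guide 16 and 21% with guide 17 in both replicates.

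The exons of MARK3 and SLIT2 could be read mainly in 293T, and those of EPB41 and SIRT2 are given beside them. MARK3 encodes a kinase of microtubule-associated proteins. Its 27-nt exon had 70% and 74% in the 293T sgRenilla libraries and 28%, 28%, 32% and 28% with GPATCH8 guides (difference -43 points, limma adjusted p = 0.035). In SRSF2 WT cells the same exon was near 0, with 2%, 1% and 3% against 2%, 2% and 1%. SLIT2 encodes a secreted guidance cue, and its 24-nt exon had 73% and 79% against 31%, 15%, 28% and 18% (difference -53 points, limma adjusted p = 0.0161). It had no values in the SRSF2 and U2AF1 panels. EPB41 encodes protein 4.1 of the membrane skeleton. Its 63-nt exon had 77% and 79% with sgRenilla, 37%, 27%, 34% and 26% with GPATCH8 guides (difference -47 points, limma adjusted p = 0.0161) and 78%, 78%, 76% and 79% with SUGP1 guides. GPATCH8 guides thus gave low values in all 4 libraries, while the SUGP1 guides stayed within 3 points of the controls. SIRT2 rose in 293T from 22% and 18% to 57%, 53%, 54% and 50% (difference 33.5 points, limma adjusted p = 0.0351), beside 20%, 19%, 17% and 20% with SUGP1 guides. Each of these 293T calls was lost when 1 library was left out.

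SF3B1 K700E raised more cassette exons than it lowered. The comparison averaged the K700E minus WT difference over the sgRenilla, sgSUGP1 and sgGPATCH8 cells with equal weight, with 5 libraries of each genotype, so a difference given here is not the difference of plain means. Of 14214 exons tested, 337 rose (2.37%) and 122 fell (0.858%), 3.23% in all, while 3.35% of all events were called (2.13% higher and 1.22% lower). The exons that rose were coding in 57.3% of cases and those that fell in 35.6%, against 55.2% of those tested. Of 198 microexons 8 rose and 1 fell. Leaving out 1 library at a time gave 46 to 117 calls, and the fit of 1 sequencing run at a time gave 24 and 57.

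NOX5 encodes an NADPH oxidase that makes superoxide. Its 133-nt exon (chromosome 15, 69329550 to 69335003) had 70.5% in the WT sgRenilla library, 54% and 56% with SUGP1 guides and 77% and 63% with GPATCH8 guides. In K700E cells it had 96.5%, then 93.5% and 96%, then 92.5% and 94%. Every K700E library was above every WT library (log2 ratio 3.09, SE 0.25, difference 29.7 points, limma adjusted p = 0.00885). CCDC173 encodes a coiled-coil protein, and its 227-nt exon had 11%, 13.5%, 7%, 15% and 21.5% in WT cells, in the same order of guides. In K700E cells it had 82%, 35%, 59.5%, 68% and 69.5%, again with no overlap (difference 52.8 points, limma adjusted p = 0.0127). ENTPD1 encodes the ectonucleotidase CD39. Its 151-nt exon (chromosome 10, 97599565 to 97604233) had 29.5%, 69.5%, 53.5%, 31.5% and 39% in WT cells and 93.5%, 90.5%, 94.5%, 75% and 87% in K700E cells. Here the WT cells with SUGP1 guides lay above the other WT cells, and still below every K700E library (difference 46.9 points, limma adjusted p = 0.0127). NOX5 and ENTPD1 kept their call in each of the 8 fits without 1 library and CCDC173 in 7.

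**Figure D3:**
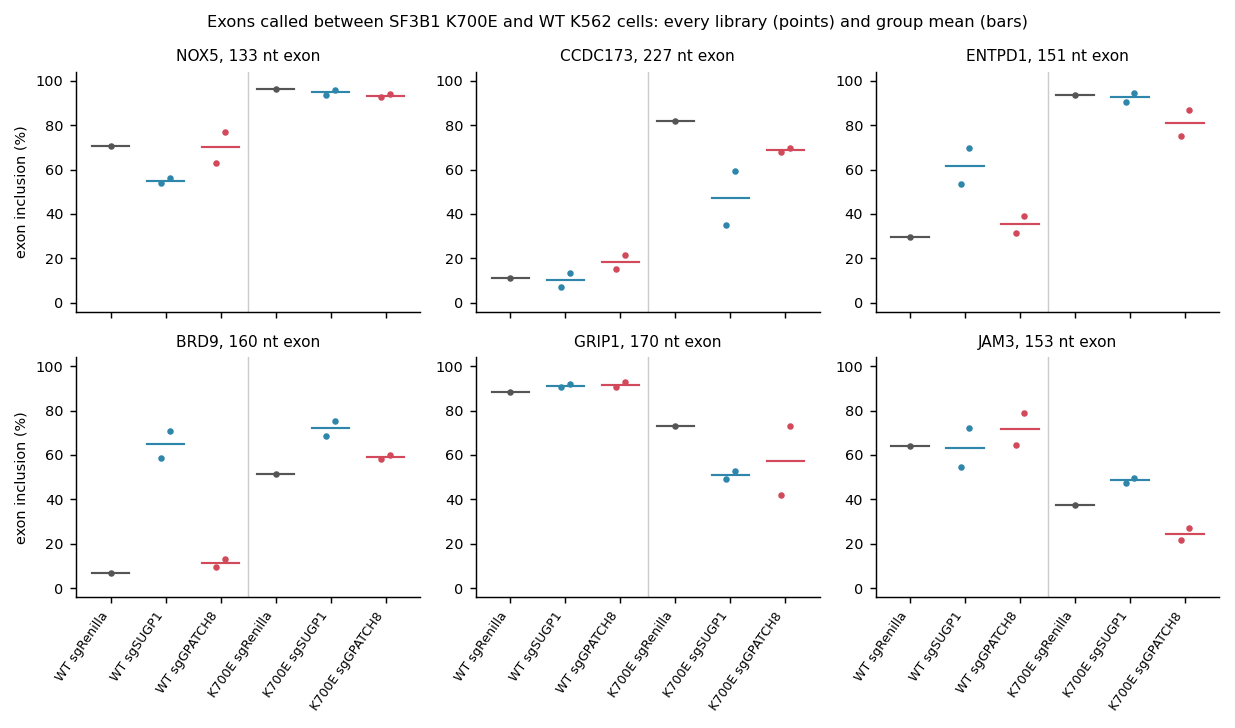
Inclusion (percent) of 6 exons in each SF3B1 library, by genotype and guide target, with 1 point per library. NOX5, CCDC173 and ENTPD1 are higher in K700E libraries without overlap, GRIP1 and JAM3 are lower without overlap, and BRD9 is high both in K700E cells and in WT cells with SUGP1 guides.

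BRD9, a subunit of a chromatin remodelling complex, has a 160-nt exon known from an NMD transcript. It had 7% in the WT sgRenilla library, 71% and 58.5% with SUGP1 guides and 13% and 9.5% with GPATCH8 guides. In K700E cells it had 51.5%, 75.5%, 68.5%, 60% and 58% (difference 33.2 points, limma adjusted p = 0.0108). The genotypes overlapped only through the WT libraries with SUGP1 guides. ABCC5, an exporter of nucleotides, has a 75-nt exon with the same arrangement. It had 58.5%, 98.5%, 98%, 58% and 52% in WT cells and 98.5%, 98.5%, 97.5%, 94.5% and 96% in K700E cells (difference 26.7 points, limma adjusted p = 0.00756). The 120-nt exon of GUSBP11, a transcribed pseudogene that may share reads with its copies, had 17%, 49.5%, 60.5%, 25.5% and 22% in WT cells. In K700E cells it had 49.5%, 75%, 78.5%, 50.5% and 67% (difference 29.8 points, limma adjusted p = 0.0237). MTERF2, a mitochondrial transcription factor, had 88%, 98%, 98%, 88% and 87% in its 101-nt 5' UTR exon in WT cells and 97.5% to 99% in K700E cells (difference 7.08 points, limma adjusted p = 0.00756). BRD9, ABCC5 and MTERF2 kept their call in 8 of 8 fits without 1 library and GUSBP11 in 1.

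Exons that fell with K700E were fewer. GRIP1, a scaffold of glutamate receptors, has a 170-nt exon with 88.5%, 92%, 90.5%, 90.5% and 93% in WT cells and 73%, 49%, 53%, 73% and 42% in K700E cells (difference -30 points, limma adjusted p = 0.0311). JAM3, a junctional adhesion molecule, has a 153-nt exon with 64%, 72%, 54.5%, 79% and 64.5% against 37.5%, 49.5%, 47.5%, 21.5% and 27% (difference -29.6 points, limma adjusted p = 0.0398). In neither did the genotypes overlap. INPP5J, an inositol phosphatase, had 69%, 76%, 75%, 63.5% and 70% against 29%, 28.5%, 29.5%, 63% and 36.5% (difference -34.5 points, limma adjusted p = 0.0311). One K700E library with a GPATCH8 guide, at 63%, lay close to the lowest WT library. DLST, a subunit of the oxoglutarate dehydrogenase complex, has a 34-nt exon with 95%, 67.5%, 61.5%, 89.5% and 92.5% in WT cells and 59.5%, 57%, 54%, 62.5% and 66.5% in K700E cells (difference -23.7 points, limma adjusted p = 0.00889). Of the WT libraries with SUGP1 guides, that at 61.5% lay among the K700E values and that at 67.5% just above them. DLST kept its call in 8 of 8 fits without 1 library, GRIP1 and INPP5J in 2 and JAM3 in 0.

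In a list of reported SF3B1 K700E and SUGP1 targets, 22 of 31 genes had an exon of this kind, and 66 exons were tested. With K700E 11 rose and 4 fell, with a median difference of 0.75 points, which is also the median over all 14214 exons described here (0.33 over all events tested). Over all events 2.13% were called higher and 1.22% lower. The list was drawn up with earlier results of these data known. ALAS2, the first enzyme of heme synthesis in red cells, has a 111-nt exon with 43%, 50.5%, 48.5%, 44% and 42% in WT cells and 56%, 60%, 59%, 56% and 57.5% in K700E cells (difference 12.2 points, limma adjusted p = 0.0361). ORAI2, a calcium channel, had 75%, 90.5%, 90%, 84% and 74.5% against 93%, 96.5%, 97%, 89% and 92% (difference 11.9 points, limma adjusted p = 0.0256). DPH5, an enzyme of diphthamide synthesis, had 93.5%, 89%, 93%, 95% and 95% against 85%, 86.5%, 85%, 86.5% and 88% in its 158-nt exon (difference -7.17 points, limma adjusted p = 0.0343). ALAS2 and DPH5 values did not overlap between genotypes. Of 8 fits without 1 library, 0 kept the call of ALAS2, 2 that of ORAI2 and 1 that of DPH5.

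The counts of exons called with SUGP1 guides in the SF3B1 panel depended on the sequencing run. In K700E cells 6 were called from both runs, 0 from run 1 alone, 181 from run 2 alone and 25 from both runs without the limit on group means. In SF3B1 WT cells 2 of 14214 rose by limma (0.0197% of all events were called). They were the ABCC5 exon (difference 39.8 points, adjusted p = 0.0476) and an exon of NPIPB5, a member of a family of near-identical copies, listed at 0% with sgRenilla and at 22% and 22.5% with SUGP1 guides (adjusted p = 0.0476). In K700E cells, from both runs, 3 rose and 3 fell (0.0944% of all events, 0.00984% higher and 0.0846% lower). FTH1, the heavy chain of the iron store ferritin, had 70% in the K700E sgRenilla library and 100% with both SUGP1 guides in its 147-nt exon (difference 30 points, limma adjusted p = 0.0142), and a second event of FTH1 rose by 28 points. DNAJC2, a ribosome-bound chaperone, has an 81-nt exon with 76.5% in that library and 97% and 97.5% with SUGP1 guides (difference 20.8 points, limma adjusted p = 0.0333). The 3 that fell were CYB561, an electron carrier (91% against 64.5% and 61%, -28.2 points, adjusted p = 0.0462), SMC4, a condensin subunit (17% against 1.5% in both, -15.5 points, 0.0214), and TXN, thioredoxin (99% against 88.5% and 87%, -11.2 points, 0.0471). Each SF3B1 call for SUGP1 rests on 1 sgRenilla library and was lost when any 1 library was left out.

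In 293T, 2 of 13572 exons rose with SUGP1 guides by limma and 0 fell (0.0428% of all events were called). BRD9 had 5% and 4% with sgRenilla and 45%, 27%, 41% and 32% with SUGP1 guides (difference 31.8 points, adjusted p = 0.0142), beside 5%, 3%, 6% and 3% with GPATCH8 guides. GUSBP11 had 16% and 17% against 47%, 54%, 48% and 55% (difference 34.5 points, adjusted p = 0.0432). Both were among the 337 exons that rose with K700E, a comparison that shares no library with the 293T panel. Of the K700E rises tested in 293T, 159 of 275 (57.8%) were also above 0 with SUGP1 guides, and of the K700E falls 32 of 72 (44.4%) were below 0. The same direction was found for 49% of all exons tested in both. BRD9 and GUSBP11 lost their 293T call when 1 library was left out. Exons without a 293T call also differed. ABCC5 had 34% and 29% with sgRenilla and 89%, 85%, 89% and 93% with SUGP1 guides. The 34-nt DLST exon had 87% and 91% against 72%, 63%, 68% and 61%. Both moved in the direction seen with K700E. ENTPD1, which rose with K700E, had 8% and 9% against 4% in each library with SUGP1 guides.

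SRSF2 P95H changed exons in both directions. With sgRenilla, 74 of 12289 exons rose (0.602%) and 108 fell (0.879%), 1.48% in all, against 1.08% of all events (0.482% higher and 0.598% lower). With sgGPATCH8, 245 rose and 393 fell (5.19%), against 4.06% of all events (1.73% higher and 2.33% lower). These 2 comparisons share no library. Of the 182 exons called with sgRenilla 161 (88.5%) had the same direction with sgGPATCH8, against 55.8% of all 12289. Both comparisons called 80 exons, which is 44% of the sgRenilla list and 12.5% of the sgGPATCH8 list. Without 1 library at a time the sgRenilla count was 35 to 49 and the sgGPATCH8 count 286 to 346.

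The exons that rose and those that fell with P95H held different shares of the 2 motifs. Among distinct exons of 61 to 200 nt, 83.1% of the 6647 tested held a CCNG and 74.9% a GGNG, 48.6% held more CCNG than GGNG and 29.5% held more GGNG. Of 36 exons that rose with sgRenilla, 86.1% held more CCNG and 2.78% more GGNG. Of 56 that fell, 8.93% held more CCNG and 80.4% more GGNG. In density the exons that rose had 2.78 CCNG and 0.98 GGNG per 100 nt, those that fell had 1.43 and 3.53, and those tested had 2.07 and 1.68. With sgGPATCH8 the same order was seen, with more CCNG in 70.9% of 117 exons that rose and in 28.5% of 228 that fell. With GPATCH8 guides in P95H cells 52.6% of 135 exons that rose and 51% of 245 that fell held more CCNG. With GPATCH8 guides in SRSF2 WT cells, where fewer exons were called, 61.9% of 21 that rose and 21.4% of 14 that fell held more CCNG, while 23.8% and 50% held more GGNG. Of 180 exons that rose with K700E 48.9% held more CCNG. The shares are descriptions of called exons and have no test.

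**Figure D4:**
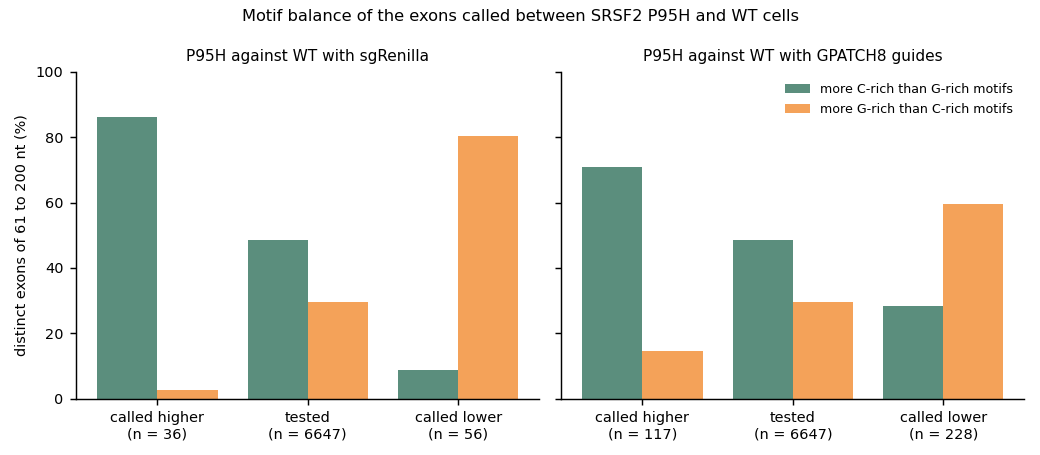
Percent of distinct cassette exons of 61 to 200 nt with more CCNG than GGNG (C-rich) or more GGNG than CCNG (G-rich), for exons called higher, all tested, and called lower with SRSF2 P95H, separately for sgRenilla and sgGPATCH8 cells. With sgRenilla the C-rich share is 86.1% of exons called higher, 48.6% of those tested and 8.93% of those called lower.

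CD44 encodes a receptor for hyaluronan, and its variable exons are skipped or kept as a block in many cells. The 129-nt exon between 35223334 and 35227659 of chromosome 11 had 17%, 18% and 17% with WT SRSF2 and 33%, 32% and 31% with P95H in sgRenilla cells. The groups did not overlap (difference 14.7 points, log2 ratio 1.13, SE 0.16, limma adjusted p = 0.0137). In sgGPATCH8 cells the exon had 27%, 20% and 21% against 40%, 43% and 39% (difference 18 points, limma adjusted p = 0.00414). The next variable exon, the 132-nt exon shown above, rose in sgRenilla cells from 22%, 30% and 30% to 53%, 54% and 51% when measured from its near neighbour (difference 25.3 points, limma adjusted p = 0.0184). Measured from a distant exon it rose from 9%, 13% and 14% to 24%, 25% and 20% (difference 11 points, limma adjusted p = 0.0379). Another CD44 exon, of 204 nt, went from 63%, 58% and 57% to 79%, 81% and 78% (difference 20 points, limma adjusted p = 0.0127). The sgRenilla calls of the 129-nt and 132-nt exons missed the threshold in each fit without 1 library, with an adjusted p up to 0.118.

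FYN, a kinase of the Src family, has a 165-nt exon with 57%, 57% and 65% with WT SRSF2 and 82%, 80% and 84% with P95H (difference 22.3 points, limma adjusted p = 0.011). In sgGPATCH8 cells it had 60%, 52% and 52% against 73%, 70% and 74% (difference 17.7 points, limma adjusted p = 0.018). TTLL3 encodes a tubulin glycylase. Its 129-nt exon had 47%, 45% and 45% against 74%, 68% and 70% in sgRenilla cells (difference 25 points, limma adjusted p = 0.00557), and kept its call without any 1 library. In sgGPATCH8 cells TTLL3 had 45%, 42% and 43% against 52%, 53% and 48%, which was not called, and GPATCH8 guides lowered it within P95H cells by 19.7 points (limma adjusted p = 0.00258, with the P95H sgRenilla libraries shared by both differences). SMPDL3A, a phosphodiesterase, has a 97-nt exon with 40%, 38% and 36% against 65%, 66% and 70% (difference 29 points, limma adjusted p = 0.0336). GNAS, the stimulatory G protein subunit, has a 45-nt exon with 42%, 41% and 48% against 61%, 58% and 62% (difference 16.7 points, limma adjusted p = 0.0197). Every P95H sgRenilla library of these exons lay above every WT one. Of 6 fits without 1 library, 3 kept the sgRenilla call of FYN, 1 that of GNAS and 0 that of SMPDL3A.

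FLYWCH1, a zinc finger protein, has a 245-nt exon with 9 GGNG and 2 CCNG. It fell from 40%, 36% and 33% with WT SRSF2 to 9%, 7% and 5% with P95H (difference -29.3 points, log2 ratio -2.79, SE 0.21, limma adjusted p = 0.0012). In sgGPATCH8 cells it had 31%, 29% and 32% against 11%, 9% and 11% (difference -20.3 points, limma adjusted p = 0.00211). KIAA1024 had 62%, 79% and 51% against 16%, 14% and 14% in its 66-nt exon (difference -49.3 points, limma adjusted p = 0.0132). TDP1, which repairs DNA bound to topoisomerase, has a 223-nt exon with 68%, 73% and 74% against 50%, 48% and 46% (difference -23.7 points, limma adjusted p = 0.0127). In sgGPATCH8 cells ATXN3, a deubiquitinase, had 24%, 9% and 18% against 79%, 77% and 56% in a 45-nt exon (difference 53.7 points, limma adjusted p = 0.00941). CASK, a synaptic scaffold kinase, had 11%, 16% and 16% against 39%, 46% and 39% (difference 27 points, limma adjusted p = 0.0248). ODF2L, a centrosome protein, had 67%, 75% and 61% against 25%, 11% and 26% (difference -47 points, limma adjusted p = 0.0118), and DHDH, a dehydrogenase, had 63%, 77% and 59% against 34%, 31% and 29% (difference -35 points, limma adjusted p = 0.00698). FLYWCH1, ATXN3, ODF2L and DHDH kept these calls in each of 6 fits without 1 library, KIAA1024 in 3, TDP1 in 2 and CASK in 0.

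**Figure D5:**
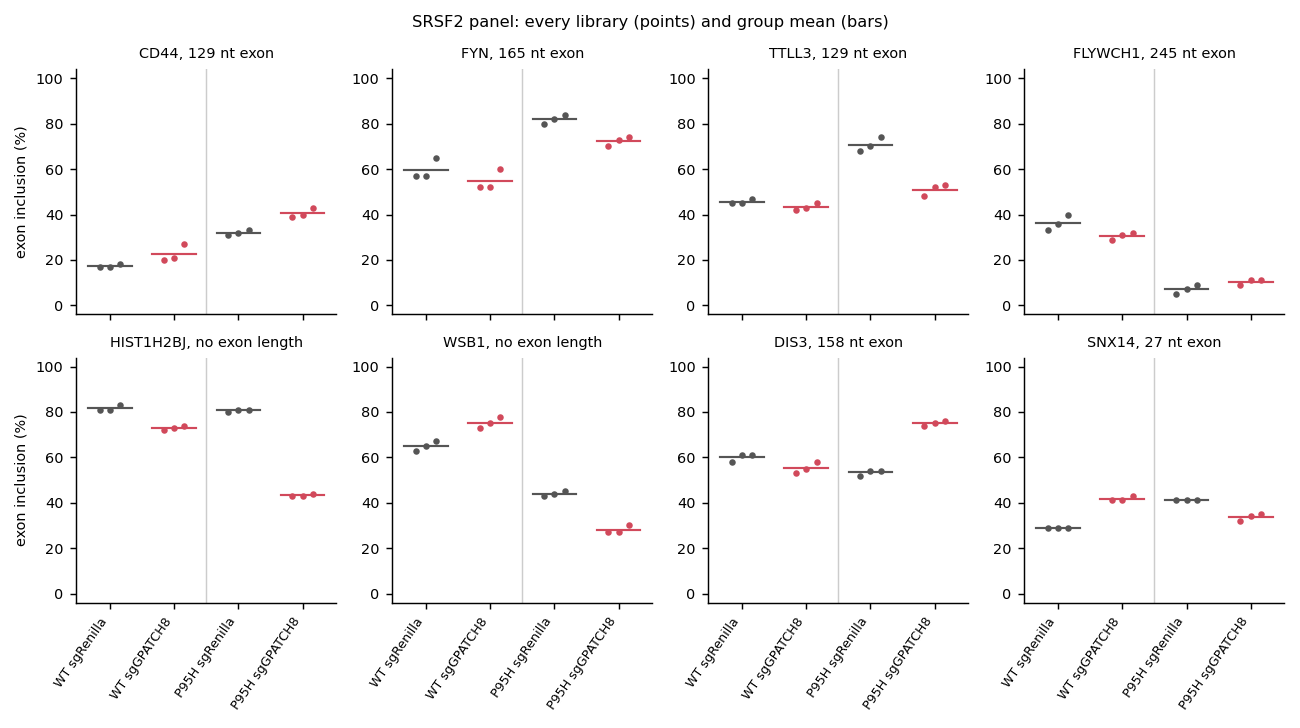
Inclusion (percent) of 8 exons in each SRSF2 library, by genotype and guide target, with 1 point per library. CD44, FYN and TTLL3 are higher and FLYWCH1 and WSB1 lower with P95H in sgRenilla cells, while HIST1H2BJ, DIS3 and SNX14 show P95H differences that depend on the guide target.

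The effect of GPATCH8 loss itself differed between SRSF2 P95H and WT cells for 6 exons, 1 higher and 5 lower, when the difference of the differences was tested (0.0614% of all events, 0.0205% higher and 0.0409% lower). WSB1, a substrate adaptor of a ubiquitin ligase, had 67%, 63% and 65% with WT sgRenilla, 73%, 75% and 78% with WT sgGPATCH8, 44%, 43% and 45% with P95H sgRenilla and 27%, 27% and 30% with P95H sgGPATCH8. Inclusion was thus highest with WT and GPATCH8 guides and lowest with P95H and GPATCH8 guides (difference of differences -26.3 points, limma adjusted p = 0.0301). HIST1H2BJ, a histone H2B gene, had 81%, 81% and 83%, then 74%, 73% and 72%, then 80%, 81% and 81%, then 43%, 43% and 44%, in the same order. Only the P95H sgGPATCH8 libraries lay under 50% (-28.7 points, limma adjusted p = 0.0234). DIS3, an exosome ribonuclease, had 61%, 61% and 58%, then 58%, 53% and 55%, then 52%, 54% and 54%, then 74%, 75% and 76% in its 158-nt exon (26.3 points, limma adjusted p = 0.0301).

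ATP13A3, a polyamine transporter, has a 90-nt exon that in the same order of groups had 87% in each of the first 3 libraries, then 84%, 80% and 81%, then 89%, 90% and 89%, then 62%, 58% and 60% (difference of differences -24 points, limma adjusted p = 0.0301). LIG4, the ligase of end joining, had 9%, 11% and 10%, then 17%, 17% and 19%, then 20%, 18% and 18%, then 12%, 9% and 10% (-16 points, limma adjusted p = 0.0301). SNX14, a sorting nexin, has a 27-nt exon that rose with GPATCH8 guides in WT cells, from 29% in each library to 43%, 41% and 41%. In P95H cells it fell from 41% in each library to 32%, 35% and 34% (difference of differences -20 points, limma adjusted p = 0.035). It was the 1 microexon that rose with GPATCH8 guides in SRSF2 WT cells. Fits without 1 library called 0 to 2 exons each. Of these 6 exons they kept the call of LIG4 in 1 of 12 fits and that of the others in 0. In the SF3B1 panel the same kind of test called 1 exon, that of DNAJC2 (0.0295% of all events were called). It had 97% with WT sgRenilla, 87% and 86.5% with WT sgGPATCH8, 76.5% with K700E sgRenilla and 97% and 96% with K700E sgGPATCH8 (30.2 points, limma adjusted p = 0.0343), and the call was lost without any 1 library. Each genotype had 1 sgRenilla library. The K700E one, at 76.5%, was also the control of the DNAJC2 call with SUGP1 guides, so these calls are not independent.

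U2AF1 S34F was compared with WT U2AF1 in sgRenilla and in sgGPATCH8 cells. With sgRenilla limma called 0 of 12179 exons (0.0023% of all events were called). Before adjustment 1436 exons (11.8%, against 9.32% of all events) had a p under 0.05, with a lowest adjusted p of 0.118. Same-numbered libraries of these groups deviated together, though replicates 2 and 3 did so across numbers as well. With the replicate number as a block 4 exons were called (0.0345% of all events). They were AP1S2, an adaptor of clathrin coats (-16.3 points, adjusted p = 0.0226 with the block and 0.121 without), SNX14 (-14.0 points, 0.0367 and 0.121), TRMT1L, a tRNA methyltransferase homolog (10.3 points, 0.0264 and 0.121), and RPGRIP1L, a protein of the base of the cilium (29.3 points, 0.0367 and 0.215). With sgGPATCH8 1 exon rose (0.023% of all events). It was the 126-nt exon of XRRA1, a gene named for its response to radiation, with 11%, 9% and 7% against 25%, 27% and 31% (difference 18.7 points, limma adjusted p = 0.0318), and 1 of 6 fits without 1 library kept the call. In sgRenilla cells XRRA1 had 19%, 22% and 19% against 32%, 30% and 29%. With the replicate number as a block, 90 exons rose and 46 fell in sgGPATCH8 cells (378 of all 43468 events were called). There r between same-numbered libraries was 0.075 to 0.242. The test of whether GPATCH8 loss differed between S34F and WT cells called 0 exons by limma (0% of all events). Before adjustment 532 exons (4.37%, against 4.4% of all events) had a p under 0.05, with a lowest adjusted p of 1.

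Averaged over the guide targets, a comparison added after the data had been seen, S34F raised 91 exons and lowered 156, with 6 libraries of each genotype (1.45% of all events were called, 0.545% higher and 0.902% lower). With the replicate number as a block it raised 298 and lowered 419 (1775 of all 43468 events were called). The average was not fitted without replicate 1 or without any single library. ATR, a kinase of the DNA damage response, has a 137-nt exon known from an NMD transcript with 17%, 18% and 24% (sgRenilla) and 17%, 21% and 21% (sgGPATCH8) in WT cells. With S34F it had 34%, 44% and 48%, and 39%, 49% and 43%. All S34F libraries lay above all WT libraries (difference 23.2 points, limma adjusted p = 0.00858). CEP164, a centriole protein, has a 78-nt exon with 76% to 85% in the 6 WT libraries and 58% to 67% in the 6 S34F libraries (difference -19 points, limma adjusted p = 0.0113). The 45-nt GNAS exon had 48% to 51% in WT and 63% to 71% in S34F libraries (difference 15.8 points, limma adjusted p = 0.0175). ARHGAP12, a GTPase-activating protein, has a 75-nt exon with 57% to 77% in WT and 34% to 51% in S34F libraries (difference -27.8 points, limma adjusted p = 0.0188). The SNX14 microexon had 16%, 21% and 21%, and 22%, 31% and 35%, against 5%, 6% and 5%, and 11%, 12% and 14% with S34F (difference -15.5 points, limma adjusted p = 0.00626). In none of these 5 exons did the genotypes overlap. In a list of reported U2AF1 S34F targets, drawn up with earlier results known, 4 of 46 exons tested rose and 1 fell, with a median difference of -0.25 points, against 0.00 over the exons described here and -0.17 over all events.

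Lists of genes gave further counts, all drawn up with earlier results of these data known. Over all exons described here the median difference was 0.75 points with K700E, 0.33 with P95H in sgRenilla cells and -0.33 in sgGPATCH8 cells, and with GPATCH8 guides -0.33 in SRSF2 WT and -0.67 in P95H cells. In the list of reported SRSF2 P95H targets 9 of 64 exon events tested rose and 0 fell with P95H in sgRenilla cells. The median difference was 1.67 points (0.33 over all events), and 0.482% of all events were called higher and 0.598% lower. The 9 lay in CD44, ENDOV, FYN and GNAS, and events of a gene can share an exon. In sgGPATCH8 cells 7 of 64 rose and 2 fell (median 0.83 points, 0.00 over all events). There 1.73% of all events were called higher and 2.33% lower. Of 51 genes of adhesion, trafficking and the cytoskeleton with known regulated exons, 49 had an exon of this kind. With GPATCH8 guides 20 of 114 tested fell and 3 rose in P95H cells (median -1.17 points, -0.33 over all events), and 6 fell and 1 rose in SRSF2 WT cells (median -0.17 points, 0.00 over all events). Over all events 2.95% were called lower and 1.89% higher in P95H cells, and 0.284% and 0.207% in SRSF2 WT cells. DNM2, a dynamin of membrane fission, was among the 20 with its 12-nt exon. The exon went from 69%, 71% and 71% to 52%, 51% and 53% in P95H cells (difference -18.3 points, limma adjusted p = 0.0014). With K700E 8 of 144 rose and 0 fell in this list of 51 genes (median 1.21 points, 0.33 over all events), where 2.13% of all events were called higher and 1.22% lower. Among the 8 was a 45-nt exon of BIN1, a membrane-bending protein, at 2% to 6% in WT libraries and 8.5% to 26% in K700E libraries (difference 11.2 points, limma adjusted p = 0.0394, a call that no fit without 1 library kept). Among membrane skeleton genes of red cells 3 of 23 fell and 1 rose with GPATCH8 guides in P95H cells (median -1.67 points, -0.33 over all events). Again 2.95% of all events were called lower and 1.89% higher there. Of genes of apoptosis and the cell cycle, 6 of 61 exon events fell and 1 rose with P95H in sgGPATCH8 cells (median -1 points, 0.00 over all events). Over all events 2.33% were called lower and 1.73% higher in that comparison. The calls lay in AURKA, CASP8, CDC25A and CDC25C, and AURKA has more than 1 event with the same 98-nt exon.

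Genes of the splicing machinery also had exons of this kind. SR protein and TRA2 genes had 8 of 19 exons lower and 2 higher with P95H in sgGPATCH8 cells (median -7.33 points, 0.00 over all events), and 7 lower and 0 higher with GPATCH8 guides in P95H cells (median -3.67 points, -0.33 over all events). With GPATCH8 guides in P95H cells 2.95% of all events were called lower and 1.89% higher. SRSF3, an SR protein, has a 456-nt exon known from an NMD transcript. It had 29%, 31% and 29% with WT SRSF2 and 19%, 18% and 20% with P95H in sgRenilla cells (difference -10.7 points, limma adjusted p = 0.0135), and 29%, 29% and 30% against 15%, 15% and 16% in sgGPATCH8 cells. TRA2B, an SR-like activator, has a 276-nt exon of an NMD transcript with 27%, 25% and 25% in P95H sgRenilla libraries and 20% in each P95H sgGPATCH8 library (difference -5.67 points, limma adjusted p = 0.0406). The TRA2B call and the sgRenilla call of SRSF3 were kept by 0 of 6 fits without 1 library. Of the hnRNP and PTB genes 2 of 17 exons fell and 1 rose with P95H in sgGPATCH8 cells. U2 snRNP and branch point genes had 2 of 21 lower and 1 higher in the same comparison, in which 2.33% of all events were called lower and 1.73% higher. Exons of GPATCH8 and SUGP1 themselves were not called in any comparison.

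Shares of calls among cassette exons of shorter and longer reach are given beside those of the exons described here. With K700E 4.09% of shorter-span exons, 3.23% of the exons described here and 3.28% of longer-span exons were called. With GPATCH8 guides the shares were 0.62%, 0.757% and 0.238% in SRSF2 WT cells, 6.22%, 6.02% and 4.6% in P95H cells, and 0.0894%, 0.133% and 0% in 293T. With P95H in sgRenilla cells they were 1.49%, 1.48% and 0.82%. The differences between span classes were not tested. Of microexons in SRSF2 WT cells 2 of 87 with a shorter span and 1 of 27 with a longer span fell, beside the 12 of 163 described above. Within the limits, exons whose skipping junction spanned up to 5000 nt fell in 34 of 4655 cases with GPATCH8 guides in SRSF2 WT cells, those of over 5000 and up to 10000 nt in 11 of 4291, and those of over 10000 nt in 14 of 3343.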

How the data were processed

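RNA sequencing had been done on 55 samples from K562 and 293T cells, as paired-end reads of polyadenylated RNA, with strand kept by the dUTP method, per the labels' protocols. The deposited tables give each splicing event 1 number per column, its first isoform's fraction in 2 decimals, which the authors computed, and for a cassette event this is inclusion. The submitters' processing notes name RSEM 1.2.4, Bowtie, TopHat2 2.0.8b, TopHat and hg19 (GRCh37). What each did, how reads became fractions and when a value is missing is not given in the sources used here. Read numbers behind the fractions were not used here, so the depth is unknown and no interval was computed.

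The 55 samples stood in 54 columns, since SRSF2 P95H sgGPATCH8 replicate 3 had 1 column for both of its runs. Columns of the 2 runs of an SF3B1 library were averaged, which gave 44 libraries. A further 4 per-sample columns were not used. Exon lengths, annotations and sequences came from GENCODE release 29 transcripts matched on chromosome, strand and exact exon and intron lengths, with no coordinate converted between builds.

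Inclusion was analysed as log2((f + 0.01)/(1 - f + 0.01)) with limma 3.58.1 in R 4.3.3 (trended empirical Bayes), in 1 fit per panel whose groups share the spread. An event was tested when every library of the panel had a value, unless all group means lay under 5% or all lay over 95%. P-values were adjusted by Benjamini-Hochberg over all events tested, and a call needed an adjusted p under 0.05 and a difference of at least 5 points. In 293T each guide had its own mean and guides were weighted equally, so differences between guides do not enter the spread. The fit was tested on simulated data. Named exons were the up to 10 largest rises and falls of each comparison, all where under 20 were called, exons called in comparisons that share no library, and called exons of 9 gene lists. Exons outside this rule were named after their values were seen, and a gene within it is not reported here. The exons, lists and length classes were chosen with earlier results of these data known. Same-numbered replicates deviated together in U2AF1 cells for S34F against WT with sgRenilla (r 0.147 to 0.398 over events) and for GPATCH8 loss with WT (0.122 to 0.357), so the block is given there. Replicate 2 of one group and replicate 3 of the other also deviated together (r 0.124 and 0.132, then 0.120 and 0.124). Only replicate 1 was thus set apart by its number. Alternatives were another offset, no limit on group means, missing values allowed, a 10-point difference, single runs, single guides, the replicate block and each library left out.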

Additional observations from a re-analysis of the deposited data

Results flagged for a closer look

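In 293T cells with GPATCH8 guides, the MARK3 exon of 27 nt had 1 library at 32% while the other 3 were at 28%, and the PICALM exon of 24 nt had 1 library at 7% and the other 3 at 8%. In both, the gap to the nearest other library made up the whole range of the group. Groups of 4 libraries were checked 19 times by Dixon's ratio of gap to range. These values are whole percents, so when 3 libraries tie the ratio is at its highest whatever the gap. For PICALM the gap was 1 point. A chance rate of about 1 marked group in 20 holds for values without ties and does not apply here. Neither flag therefore shows that a library was outlying.

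For 7 exons the effect of GPATCH8 loss differed between mutant and WT cells by limma's test of the difference itself. DNAJC2 had a difference of 30.2 points between SF3B1 K700E and WT cells. That difference rests on 1 sgRenilla library per genotype, and the K700E one was also the control of the DNAJC2 call with SUGP1 guides. Between SRSF2 P95H and WT cells the differences were -28.7 points for HIST1H2BJ, -26.3 for WSB1, 26.3 for DIS3, -24 for ATP13A3, -20 for SNX14 and -16 for LIG4. Without 1 library at a time, 0 of 4 fits kept the call of DNAJC2, and 1 of 12 fits kept that of LIG4 and 0 of 12 those of ATP13A3, DIS3, SNX14, HIST1H2BJ and WSB1.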

How the results depend on the processing

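The values are fractions of unknown depth, so how far counting error limits a single exon could not be given. The SF3B1 panel had 1 sgRenilla library per genotype, and a fit without it gives no contrast. Where a lone library was left in a group it was assumed to vary like the other groups of its panel. Named exons kept their direction and their side of the threshold in 2791 settings and the direction alone in 1747, and no other outcome occurred in these. Where a count moved, the cause was not tested, except that fits without a library, of 1 run or of 1 guide hold fewer data.

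Leaving out 1 library at a time gave 46 to 117 exons for K700E (459 with all), 0 for SUGP1 loss in SF3B1 WT and in K700E cells, 0 for the K700E and GPATCH8 interaction, 35 to 49 for P95H with sgRenilla, 286 to 346 for P95H with sgGPATCH8, 46 to 56 for GPATCH8 loss with SRSF2 WT, 412 to 485 with P95H and 0 to 2 for their interaction. It gave 0 to 1 for S34F with sgGPATCH8, 1 to 4 for GPATCH8 loss with U2AF1 WT, 1 to 5 with S34F, and 0 for both comparisons in 293T. The fits without replicate 1 of every U2AF1 group gave 0 for S34F with sgGPATCH8 and 0 for GPATCH8 loss with U2AF1 WT and with S34F.

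With the replicate block, which pairs libraries by number, the counts were 162 for K700E, 0 for SUGP1 loss in SF3B1 WT and K700E cells, 0 for the K700E and GPATCH8 interaction, 37 for P95H with sgRenilla, 418 for P95H with sgGPATCH8, 53 for GPATCH8 loss with SRSF2 WT, 0 for the P95H and GPATCH8 interaction, 4 for S34F with sgRenilla, 136 with sgGPATCH8 (378 of all 43468 events), 10 and 15 for GPATCH8 loss with U2AF1 WT and S34F, and 0 for GPATCH8 and SUGP1 loss in 293T. Outside the U2AF1 panel same-numbered libraries did not deviate together (r -0.045 to 0.033), so there the numbers name the libraries only. In U2AF1 cells r was 0.075 to 0.242 for S34F with sgGPATCH8 and 0.089 to 0.265 for GPATCH8 loss with S34F, which fell short of the rule for pairing. Averaged over guide targets S34F gave 247 exons and 717 with the block, where 1775 of all 43468 events were called. Averaged over WT and S34F cells GPATCH8 loss gave 39 and 68 with the block, and averaged over SF3B1 genotypes SUGP1 loss gave 0 with and without it. The averages, single guides and fits without replicate 1 of every group were chosen after seeing the data.

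Without the limit on group means the counts were 10 and 25 for SUGP1 loss in SF3B1 WT and K700E cells, 6 and 12 for GPATCH8 loss in these, 11 for the K700E and GPATCH8 interaction, 84 for the P95H and GPATCH8 interaction, 18 and 36 for S34F with sgRenilla and sgGPATCH8, 13 for GPATCH8 loss with S34F, and 53 and 9 for GPATCH8 and SUGP1 loss in 293T. An offset of 0.05 gave 2 for GPATCH8 loss in SF3B1 K700E cells, 16 for the P95H and GPATCH8 interaction, 4 for S34F with sgGPATCH8 and 4 for SUGP1 loss in 293T. A difference of at least 10 points left 282 for K700E, 406 for P95H with sgGPATCH8 and 483 for GPATCH8 loss with P95H. With 1 missing value per group allowed, SUGP1 loss gave 0 in SF3B1 WT cells and 1 in 293T. Sequencing run 1 alone gave 24 for K700E, 0 for SUGP1 loss in both SF3B1 genotypes and 0 for the K700E and GPATCH8 interaction. Run 2 alone gave 57, then 0 and 181, then 23, and 3 for GPATCH8 loss in K700E cells. In 293T guides 16 and 17 alone, and guides 3 and 4 alone, gave 0.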
